A study of Homo sapiens with 3 samples.

Results

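A set of 10 genes of the Polycomb repressive complexes was followed in HCT116 cells after knockdown of SMARCA4, and none of them reached a 1.5-fold difference from control cells in either knockdown. The genes were EZH1, EZH2, EED and SUZ12 of the PRC2 core, JARID2, MTF2 and PHF19 among the accessory subunits of PRC2, and CBX2, RNF2 and BMI1 of PRC1. They were found by gene name among the transcript probes of each array, and all 10 genes had at least 1 probe well above background on all 3 arrays. The 10 genes were represented by 14 of the 58201 probes, and the analysis covered 22619 genes with a signal above background on at least 1 array.

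HCT116 is a human colorectal cancer cell line, grown here in McCoy's 5A medium. Cells were transfected, by Lipofectamine, with small interfering RNA against SMARCA4 (SMARCA4-KD1 and SMARCA4-KD2) or with a scrambled negative control (NC), and total RNA of each was hybridised to 1 single-colour Agilent array. The comparison asks which transcripts differ once SMARCA4, the BRG1 ATPase of the SWI/SNF chromatin remodelling complex, is depleted. There was no replicate of any condition, and both knockdowns were set against the same NC array. In such bulk RNA, fewer expressing cells and less RNA per cell cannot be told apart.

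Polycomb complexes keep developmental genes silent. PRC2 methylates lysine 27 of histone H3 through its catalytic subunits EZH1 or EZH2, and PRC1 ubiquitinates histone H2A and compacts chromatin. SWI/SNF is known to oppose Polycomb at many loci, and EZH2 is often abundant in proliferating tumour cells.

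The sample records do not state which small interfering RNA was used on which array. The treatment field of the records names PRMT1, whereas the titles and the protocol name SMARCA4, so both genes were read first. SMARCA4 gave a signal of 14026 in NC, 3960 with SMARCA4-KD1 and 4129 with SMARCA4-KD2. After scaling to the 75th percentile of each array, SMARCA4-KD1 kept 26.6% of the NC level and SMARCA4-KD2 kept 28.8%. PRMT1 was 0.27 and 0.37 higher on the log2 scale. Markers of epithelial cells (EPCAM, KRT8, KRT18, KRT19 and CDH1) were well above background on every array. Of 12 markers of leukocytes, endothelium, fibroblasts and hepatocytes, 5 were above background on no array (CD3E, PECAM1, COL1A2, DCN and ALB). COL1A1 had signals of 348 to 477, and the other 6 had signals of 24.1 to 86.3. Both knockdown arrays lay on one slide and the NC array on another, so slide and knockdown cannot be told apart. Only the difference between SMARCA4-KD1 and SMARCA4-KD2 was measured within a slide.

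Among all genes, 12.2% were at least 1.5-fold lower and 11.2% at least 1.5-fold higher under SMARCA4-KD1. The shares under SMARCA4-KD2 were 9.74% lower and 10.1% higher. Against these shares, 0 of the 10 Polycomb genes passed in any of the 4 directions. In both knockdowns at once, 8.02% of all genes were lower and 6.36% were higher, again with 0 of the 10 among them. A gene that stayed within 1.5-fold of NC on both arrays was the usual case, as 71.2% of all genes did so, and 73.8% of the genes well above background on all arrays.

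**Figure D1:**
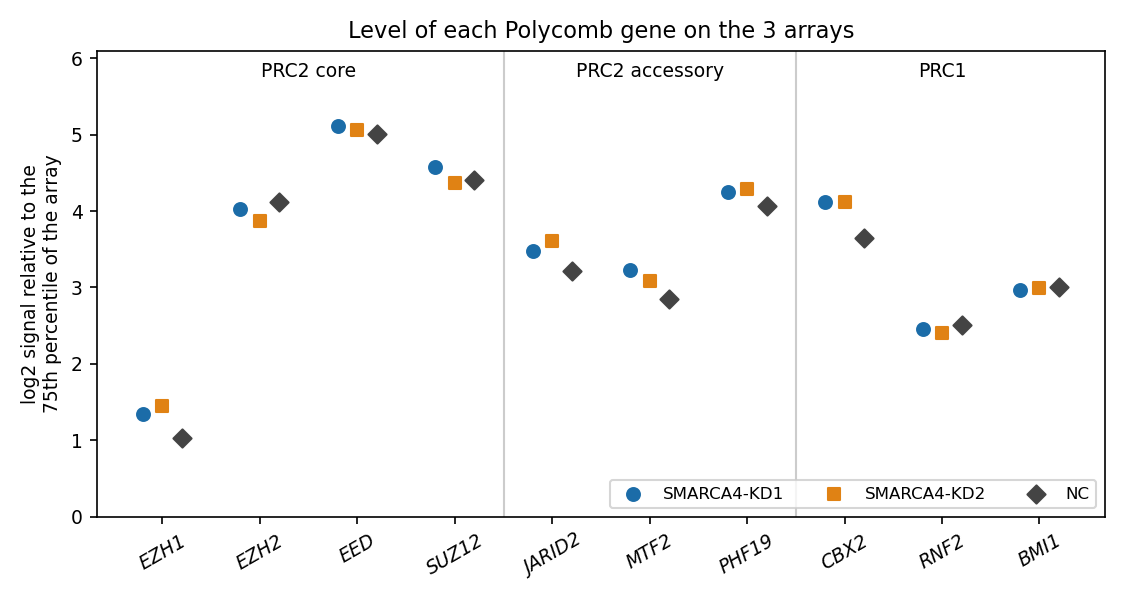
The brightest probe of each Polycomb gene on the 3 arrays, as log2 signal relative to the 75th percentile of the array (vertical axis), with 1 point per array. The 3 arrays lie close together for each gene, and NC is the lowest for EZH1, EED, JARID2, MTF2, PHF19 and CBX2. Heights of different genes come from different probes and are not comparable.

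The PRC2 core showed no shared direction. EZH2, the main methyltransferase of PRC2 in dividing cells, read 3873 in NC against 3875 (SMARCA4-KD1) and 3344 (SMARCA4-KD2). SMARCA4-KD2 was the lowest array, and the unscaled signals of SMARCA4-KD1 and NC nearly coincided. After scaling, EZH2 differed from NC by -0.08 (SMARCA4-KD1) and -0.24 (SMARCA4-KD2) on the log2 scale. The extraction software's own error for such a difference was 0.20 on the log2 scale, so the first value was within it and the second just outside. This error is the software's estimate for the measurement of a spot and not the spread between cultures. The measured scatter of repeated spots was smaller. Over probes with 10 or more spots, the median SD within an array was 0.028 to 0.035 on the log2 scale.

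EZH1, the paralog of EZH2 that also methylates lysine 27 and is known to dominate in resting cells, lay on the other side of NC. It read 455 in NC against 599 (SMARCA4-KD1) and 626 (SMARCA4-KD2), and both knockdown arrays were above NC. The log2 fold changes were 0.31 and 0.43, or 1.24-fold and 1.35-fold. The balance of the paralogs within an array does not depend on a scaling factor per array, and it was compared after their values had been seen. The ratio of EZH1 to EZH2 signal was 1.32-fold higher in SMARCA4-KD1 and 1.59-fold higher in SMARCA4-KD2 than in NC, with log2 differences of 0.40 and 0.67. The combined spot error of such a ratio was 0.29 on the log2 scale. How many other pairs of genes changed as much was not counted. Single genes had a median change of 0.29 over all genes, without regard to sign, so differences between 2 genes are common. Each paralog had 1 probe, well above background on every array, so only quantile normalization and normexp could alter the EZH1 to EZH2 ratio. Quantile normalization gave log2 differences of 0.43 (SMARCA4-KD1) and 0.70 (SMARCA4-KD2), and normexp gave 0.43 and 0.74. The remaining settings of the processing could not change the ratio and are no check of it. The probes of the paralogs share no run of more than 5 bases. The EZH1 probe lies at chr17:40852674-40852733 and the EZH2 probe at chr7:148504505-148504564, both on the minus strand (hg19).

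EED, the subunit that binds trimethylated lysine 27 and stimulates the enzyme, read 7214 in NC against 8223 (SMARCA4-KD1) and 7657 (SMARCA4-KD2). The arrays were within 1.08-fold of each other after scaling, with log2 fold changes of 0.10 and 0.05.

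SUZ12, the scaffold of PRC2, was the only member with 10 spots per array, so its technical spread could be measured. In SMARCA4-KD1 the spots ran from 5449 to 5751 with a median of 5682. In SMARCA4-KD2 they ran from 4367 to 4931 with a median of 4747. In NC they ran from 4545 to 4899 with a median of 4746. The spots of SMARCA4-KD1 lay above all spots of both other arrays, while those of SMARCA4-KD2 and NC overlapped. On the scaled log2 axis the means were 4.57 ± 0.03, 4.36 ± 0.06 and 4.41 ± 0.03 (SD over 10 spots) in SMARCA4-KD1, SMARCA4-KD2 and NC. SUZ12 thus stood 0.17 above NC with SMARCA4-KD1 and differed by -0.04 with SMARCA4-KD2 (log2 scale). The difference between the knockdowns, 0.21, was the largest among the brightest probes of the 10 genes and was larger than the spot error, although both arrays were on one slide. Spots of an array share 1 RNA sample and are not replicates of a condition.

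**Figure D2:**
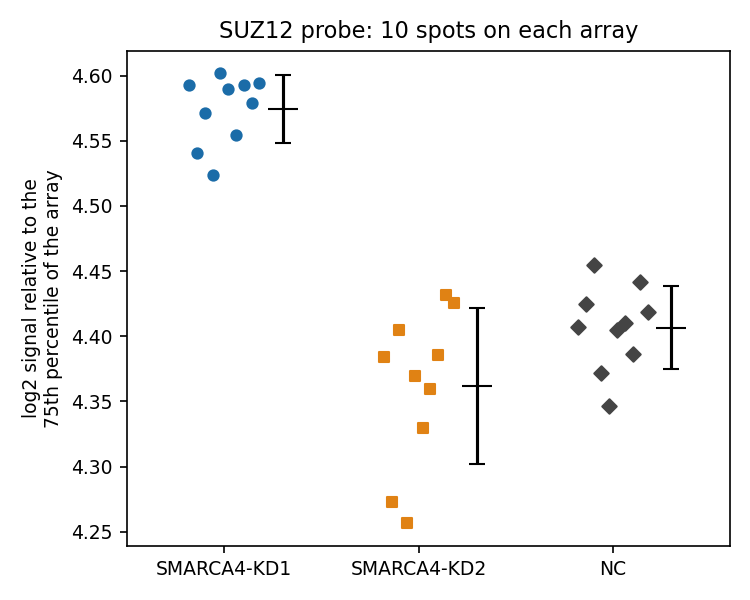
Each point is 1 of the 10 SUZ12 spots on an array, as log2 signal relative to the 75th percentile of the array (vertical axis), and the bar gives their mean and SD. The spots of SMARCA4-KD1 average 4.57 and do not overlap the others, which average 4.36 in SMARCA4-KD2 and 4.41 in NC.

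All 3 accessory subunits of PRC2 were above NC in both knockdowns on their brightest probe. JARID2, which helps bring PRC2 to its targets, gave a signal of 2073 in NC, 2645 with SMARCA4-KD1 and 2779 with SMARCA4-KD2. Its log2 fold changes were 0.27 and 0.39. MTF2, a Polycomb-like protein that binds DNA rich in unmethylated CpG, read 1610 in NC against 2230 (SMARCA4-KD1) and 1938 (SMARCA4-KD2). Its log2 fold changes were 0.39 and 0.24. For both genes NC was the lowest array, and the knockdowns changed places as to which was the higher. A share of 41.2% of all genes was likewise higher on both arrays, so that direction alone is common.

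PHF19, another Polycomb-like protein, was measured by a pair of probes that disagreed in direction. The brighter probe, designed on transcript NM_001009936, gave a signal of 3759 in NC, 4501 with SMARCA4-KD1 and 4479 with SMARCA4-KD2. The dimmer probe, designed on NM_015651, read 462 in NC, 343 with SMARCA4-KD1 and 374 with SMARCA4-KD2. The brighter was thus lowest in NC and the dimmer highest in NC. Their log2 fold changes were 0.18 and 0.22 for the brighter probe and -0.51 and -0.33 for the dimmer one. The gap between the probes, which a scaling factor cannot change, reached 0.69 (SMARCA4-KD1) and 0.56 (SMARCA4-KD2) against a combined spot error of 0.29. The first 30 of the 60 bases of each probe are shown because the direction of PHF19 rests on them.
PHF19 brighter probe, chr9:123631999-123632058: tcccatcacagagtctgagctccaagcaga
PHF19 dimmer probe, chr9:123618245-123618304: gcttcagagagcccagcaaccttctaggcc
Both lie on the minus strand of hg19. With the mean over both probes, PHF19 gave log2 fold changes of -0.17 and -0.06, so no direction for the gene as a whole can be given.

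**Figure D3:**
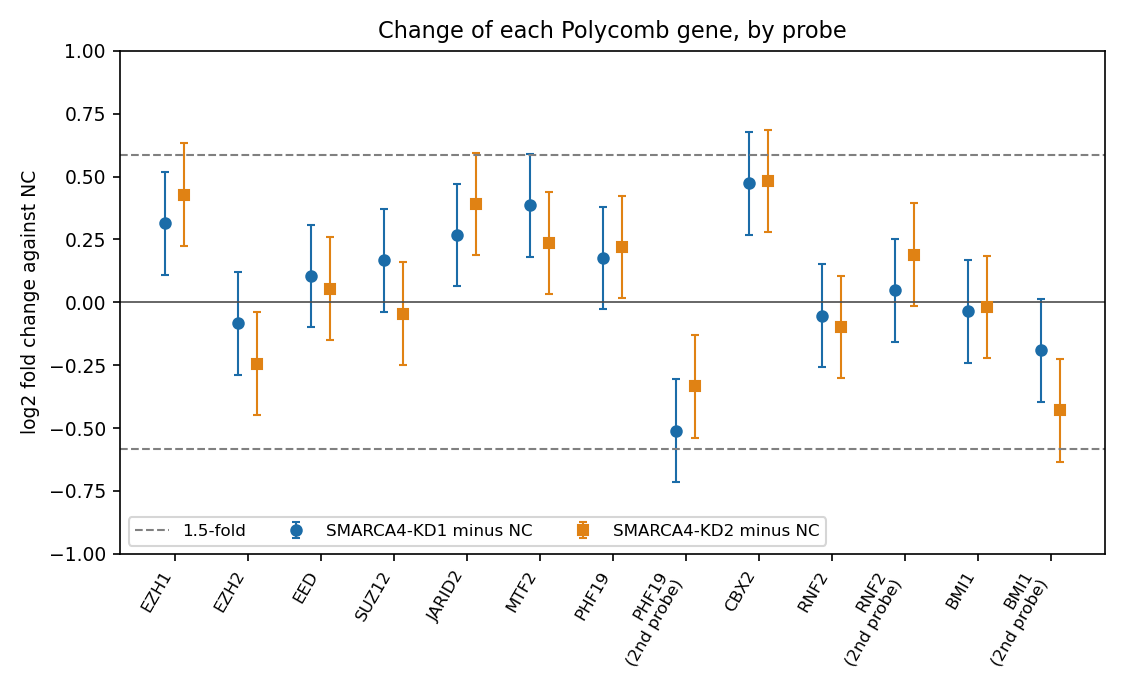
Log2 fold change against NC (vertical axis) of the 13 member probes well above background on all arrays, with SMARCA4-KD1 as circles and SMARCA4-KD2 as squares. Bars give the extraction software's error, and dashed lines mark 1.5-fold. No point lies beyond the dashed lines, and the probes of PHF19 lie on opposite sides of 0.

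Of the PRC1 genes, CBX2 stood farthest from NC among all 10 genes. CBX2 is a chromodomain subunit that recognises methylated lysine 27 and compacts nucleosomes. It read 2789 in NC against 4105 (SMARCA4-KD1) and 3983 (SMARCA4-KD2). The knockdown arrays were close to each other and both were above NC. The log2 fold changes were 0.47 and 0.48, or 1.39-fold and 1.40-fold, from a probe at chr17:77761302-77761361 (hg19, plus strand). A second CBX2 probe, for NM_032647 at chr17:77755889-77755948, was not well above background on any array, so it gives no fold. Under each setting of the processing CBX2 stayed between 0.42 and 0.53 on the log2 scale, below the 1.5-fold line at 0.58.

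RNF2 and BMI1 were nearly level on their brighter probes, and under SMARCA4-KD2 their other probes lay farther from NC. RNF2 (RING1B), the ubiquitin ligase of PRC1, gave a signal of 1270 in NC, 1298 with SMARCA4-KD1 and 1214 with SMARCA4-KD2 on its brighter probe. The log2 fold changes were -0.05 and -0.10 there, and 0.05 and 0.19 on its other probe. All but the last were small beside the spot error, and the last nearly equalled it. BMI1 (PCGF4), the partner of RNF2 in canonical PRC1, read 1798 in NC against 1860 (SMARCA4-KD1) and 1815 (SMARCA4-KD2), with log2 fold changes of -0.04 and -0.02. Its dimmer probe, which spans 409 bases of chromosome 10 and so crosses an intron, read 441 and 361 in the knockdowns and 475 in NC. On that probe both knockdowns were below NC, by log2 fold changes of -0.19 and -0.43, the latter beyond the spot error of 0.20. The value of BMI1 under SMARCA4-KD2 thus depended on the probe, and its mean over both probes was -0.22.

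Set among all genes, the Polycomb genes had changes of smaller median size. The median over the 10 genes of the mean log2 fold change was 0.14, beside 0.03 over all genes. Without regard to sign, the median size was 0.18, beside 0.29 over all genes and 0.28 over genes well above background on all arrays. By signed change, CBX2 ranked 3238th of 22619 from the top, with 85.7% of genes below it. It was followed by EZH1 with 79.7%, JARID2 with 76.9% and MTF2 with 75.8%, and EZH2, the lowest member, had 31.8% below it. A mean change larger than that of CBX2 in either direction was found in 28.5% of all genes. Between the knockdowns the members differed by a median of 0.08, with an SD of 0.12 for the difference. Over genes well above background on all arrays the median difference was 0.12 and the SD 0.25.

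**Figure D4:**
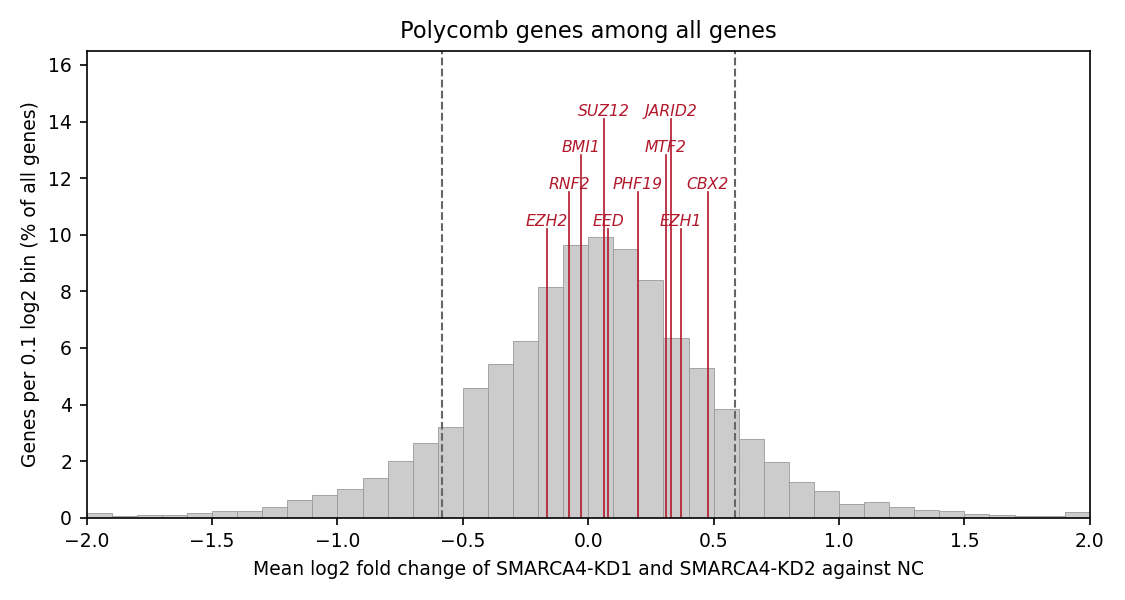
Histogram of the log2 fold change averaged over both knockdowns (horizontal axis) for 22619 genes, as percent of genes per bin (vertical axis), with values beyond the ends counted in the end bins. Lines mark the 10 Polycomb genes, from EZH2 at -0.16 to CBX2 at 0.48, all inside the dashed 1.5-fold lines.

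When limma compared both knockdown arrays with the NC array, 0% of genes and 0 of the 10 members passed an adjusted p of 0.05. The fit has 1 residual degree of freedom, and the smallest adjusted p of any gene was 0.074. CBX2 had a limma adjusted p of 0.079 (unadjusted p = 0.006), JARID2 one of 0.14 (unadjusted p = 0.039) and EZH1 one of 0.15 (unadjusted p = 0.043). Without adjustment 31.4% of all genes and 3 of the 10 members had p under 0.05. In a limma fit to only the 19503 genes measured by probes well above background on all arrays, 26.5% of genes passed the adjusted threshold, and CBX2 was the 1 member among them (adjusted p = 0.015). By the t-test that the study's methods name, 434 genes passed an unadjusted p of 0.01 together with 1.5-fold, and 0 passed after Benjamini-Hochberg adjustment. These p-values measure the spread between arrays of different small interfering RNAs, not between replicate cultures. That spread comes from the knockdown arrays, which shared a slide, whereas NC lay on another. The p-values thus hold no spread between slides, and a slide effect could pass as a knockdown effect.

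The genes most like CBX2 in their pattern were VDAC1, a channel of the outer mitochondrial membrane, LOC90784 and HBE1, the embryonic beta-like globin. Likeness was the Euclidean distance over both log2 fold changes among 19495 other genes well above background on all arrays. The distances were 0.003, 0.005 and 0.005, and 649 genes lay within 0.1 of CBX2.

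The promoters of the members were searched for letters bound by E2F factors, which drive many genes of cell division, because most proliferation genes on these arrays were lower in the knockdowns. RefSeq (GRCh38.p14) windows from 250 bases before to 50 bases after the gene start were at hand for 9 of the 10 members, 13 windows in all, with no entry for CBX2. The motifs TTTCCCGC, TTTCGCGC, TTTGCCGC and TTTGGCGC, on either strand, occurred in 5 of the 13 windows, and in 3.31% of 35116 windows of all genes. The matches are printed in capitals, 5′ to 3′ on the gene's own strand, with 10 bases on either side.
EZH2, chr7:148884273-148884300, minus strand: ggctgccgcgTTTGGCGCtcggtccggt
EZH1, chr17:42745138-42745165, minus strand: cggggttttgGCGGCAAAtgacagtagt
SUZ12, chr17:31936808-31936835, plus strand: gacccctaatTTTCCCGCgaattcagtt
MTF2, chr1:93079278-93079305, plus strand: ccggcagtccGCGGGAAAccaaaatggc
PHF19, chr9:120877323-120877350, minus strand: tcaataattcGCGGGAAAacgcgaaaaa
Counted from the gene start, the match began at position 2 in EZH2, -115 in EZH1, -189 in SUZ12, 6 in MTF2 and -152 in PHF19. The members that hold it include both the lowest, EZH2, and several that were above NC. The CCAAT box, searched on both strands, occurred in 6 of the 13 windows, and in 34.6% of the windows of all genes. The 6 windows belong to 5 members (EZH2, PHF19, EED, SUZ12 and JARID2), with 4 matches in EZH2. A match describes the letters and not binding. The windows of all genes were not matched to those of the members in base composition or expression, so the shares are not a test of enrichment.

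The remaining genes of the Polycomb machinery included larger differences than the 10 members. Of 52 further genes on the array (other subunits of PRC2 and PRC1, and the PR-DUB complex, which removes the ubiquitin mark of PRC1), 51 passed the filter on low signal, all but ASXL3. At least 1.5-fold in both knockdowns, 3 were lower (5.88%, beside 8.02% of all genes) and 4 were higher (7.84%, beside 6.36%). Their median change was -0.03 on the log2 scale.

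In PRC2, AEBP2, a zinc finger subunit of the form of PRC2 that also holds JARID2, gave a signal of 1834 in NC, 913 with SMARCA4-KD1 and 952 with SMARCA4-KD2. It was the lowest of these genes, with log2 fold changes of -1.09 and -0.98, and had 1 probe. C17orf96 (EPOP), a subunit of the form that holds MTF2 or PHF19, had a signal of 17921 and 15482 in the knockdowns and 9872 in NC, with log2 fold changes of 0.78 and 0.62, also from 1 probe. NC was the highest array for AEBP2 and the lowest for C17orf96. C17orf96 fell short of 1.5-fold on 1 array under 2 other scalings.

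In PRC1 the 4 genes past the threshold, of 33, were subunits of its variant forms. This depended on the threshold. CBX6, a paralog of CBX2 named after its value was seen, was 1.574-fold higher with SMARCA4-KD1 and 1.498-fold higher with SMARCA4-KD2. PCGF3, a paralog of BMI1, read 830 in NC against 2355 (SMARCA4-KD1) and 2102 (SMARCA4-KD2) on its brighter probe, with log2 fold changes of 1.42 and 1.31. Its other probe, designed on NM_006315, gave -0.32 and 0.01. KDM2B, which brings a variant PRC1 to CpG islands, read 384 and 374 in the knockdowns and 177 in NC, with log2 fold changes of 1.03 and 1.05, while another probe above background gave 0.24 and 0.37. BCOR, a corepressor in the same variant complex, was lower by log2 fold changes of -0.87 and -0.83 on its brightest probe and -0.20 and -0.18 on another. FBRSL1, a relative of AUTS2, was lower on its brightest probe (log2 fold changes of -0.76 and -0.73) and higher on 2 others, by 0.19 and 0.20 and by 1.68 and 1.36.

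FOXK2, a forkhead factor that associates with PR-DUB, was 2.41-fold higher on its brightest probe in both knockdowns. That probe read 1820 in NC against 4660 (SMARCA4-KD1) and 4486 (SMARCA4-KD2). Its other probes gave log2 fold changes of 0.09 and 0.15, and of 0.52 and 0.36. Of these 7 genes, 5 had several probes, and for each of the 5 at least 1 other probe above background stayed within 1.5-fold. The value of these 5 genes is thus one for a probe and not for the gene as a whole.

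**Figure D5:**
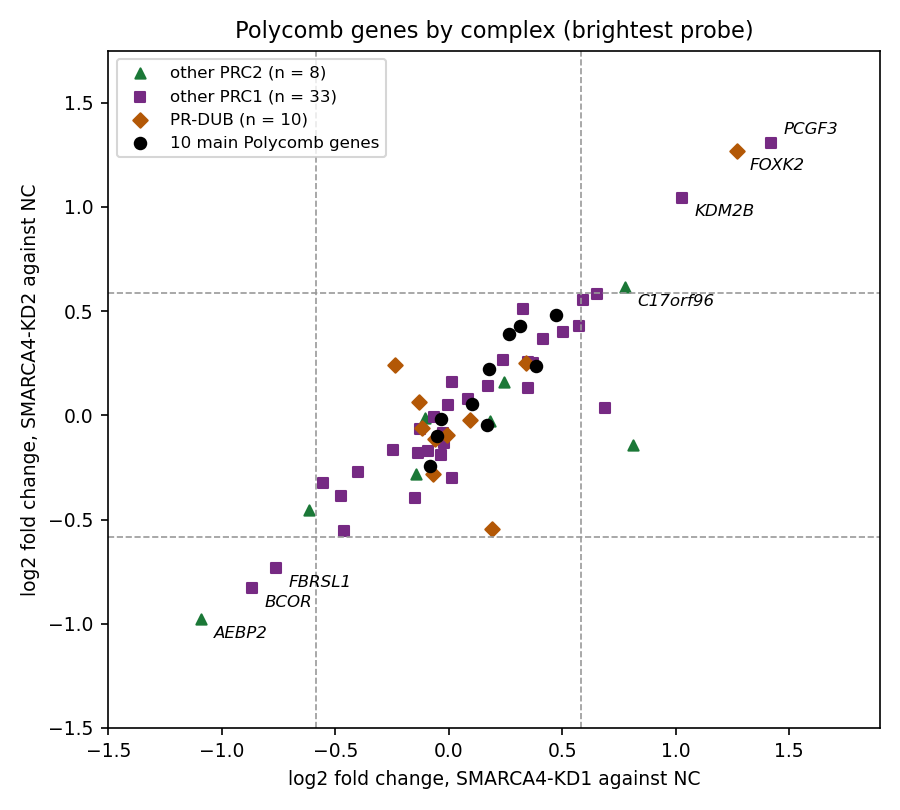
Log2 fold change against NC in SMARCA4-KD1 (horizontal axis) and SMARCA4-KD2 (vertical axis) for the brightest probe of each Polycomb gene, with 1 point per gene and dashed lines at 1.5-fold. Both axes share the NC array. The 10 members (black) lie inside the lines, and 7 other genes lie outside them in the same direction on both axes.

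Genes that oppose or obey Polycomb were read next. Of 8 enzymes whose activity opposes methylation of lysine 27, KDM6B, a demethylase of that residue, was at least 1.5-fold higher in both knockdowns. It read 51.3 in NC against 91.0 (SMARCA4-KD1) and 83.6 (SMARCA4-KD2), with log2 fold changes of 0.74 and 0.67. This is 1 of 8 genes, or 12.5%, beside 6.36% of all genes. The median of the 8 was 0.25. Of 40 developmental regulators (transcription factors and WNT1) that are classic Polycomb targets, 21 were above background on no array. Of the 19 that passed the filter, 0 were higher by 1.5-fold or more in both knockdowns, beside 6.36% of all genes. With so few genes, this does not set the list apart from all genes. None of the 19 was above background in both knockdowns but not in NC. Of 11 target genes tied to growth control, 10 passed the filter. Among them, KLF2 was higher (log2 fold changes of 1.06 and 1.04) and DAB2IP was lower (-0.92 and -0.75).

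Most proliferation genes were below NC. The median log2 difference from NC of the 21 was -0.53 with either knockdown, beside 0.17 and 0.14 for the 10 members. Of the 21, 18 were lower on both arrays, as were 39.3% of all genes. At least 1.5-fold lower on both were 7 of them (33.3%, beside 8.02% of all genes). The 7 were MKI67, TOP2A, MCM5, CCNB1, CDK1, FOXM1 and MYBL2, each on its brightest probe. A second CCNB1 probe above background stayed within 1.5-fold, at -0.26 and -0.33. MKI67, the Ki-67 antigen, gave a signal of 3517 in NC, 1678 with SMARCA4-KD1 and 1593 with SMARCA4-KD2, with log2 fold changes of -1.15 and -1.18. PCNA, the replication clamp, gave -0.45 and -0.46. E2F1 gave 0.18 and -0.01. The 2 proliferation genes above NC on both arrays were CCNE1, a cyclin of entry into S phase, at 0.61 and 0.48, and RRM2, a subunit of ribonucleotide reductase, at 0.51 and 0.41. They are named because they went against the rest of the list, which was noted after their values were seen. Beside these, EZH2 at -0.08 and -0.24 was nearer to NC than MKI67 or PCNA on both arrays. The other PCNA probe, at -0.29 and -0.30, was close to EZH2 under SMARCA4-KD2. MCM7 of the same list, named after its value was seen, gave -0.08 and -0.09. EZH2 thus did not stand apart from every gene of the list. The part of the lower proliferation genes in the values of the Polycomb genes was not tested.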

How the data were processed

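There was 1 array per condition. The values are spot intensities, deposited by the authors as written by Agilent Feature Extraction 10.7.1.1 (background subtraction and detrending, no normalization between arrays). The deposited series-level table held the same intensity for the member probes. The deposited 0 or 1 flags (other columns) were used as given.

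Control spots and outlier spots were left out, repeated spots were averaged as log2, and the 75th percentile of each array (a signal of 237, 228 and 223) was subtracted. Values not well above background were raised to the lowest value well above background on that array. Between 45.7% and 47.3% of probes were well above background. The brightest probe stood for a gene. Names and probe positions are those of the array files (hg19). Of 12 member accessions, 11 had the same symbol in RefSeq, and NM_152991 (EED) was not matched.

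Differences were called at 1.5-fold. With 1 array per condition no single knockdown could be tested, and precision is limited by the number of arrays. Limma 3.58.1 (R 4.3.3, intensity trend, Benjamini-Hochberg over all genes) took both knockdowns against NC. Steps were tested on simulated data. Tables and figures used Python 3.11.15, numpy 2.4.6, pandas 2.3.3 and matplotlib 3.10.9. The members and gene lists were chosen with earlier results of these data known. Named are all members with every probe, the list genes at least 1.5-fold apart in the same direction in both knockdowns, SMARCA4 and PRMT1, the 3 genes nearest to CBX2, and MKI67, E2F1 and PCNA. A few items that this rule would name are not reported here.

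Alternatives were quantile normalization, normexp (offset 50), a percentile taken from the probes detected on all arrays, a stricter filter and no filter, values without the floor, averaging a gene's probes, the series-level table, a 2-fold threshold and, for limma, no trend, an unadjusted p, a filter on all arrays and the methods' t-test.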

Additional observations from a re-analysis of the deposited data

How the results depend on the processing

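In each of the 9 settings of scaling, background, filter and probes, 0 of the 10 members were at least 1.5-fold lower or higher in both knockdowns, and the median of their mean log2 fold changes ran from 0.06 (quantile normalization) to 0.17 (normexp). The sign changed between settings for 4 members: EED, PHF19, RNF2 and BMI1. PHF19 ran from -0.17 to 0.27 and was below NC only when its probes, which disagreed in direction, were averaged. BMI1 under SMARCA4-KD2 ran from -0.22 to 0.01. The count of further Polycomb genes lower in both knockdowns fell from 3 to 1 when a gene's probes were averaged and to 0 at 2-fold. Other probes of BCOR and FBRSL1 stood nearer to NC or above it. The count of higher ones was 3 or 4 in each setting. The number of members called by limma was 0, but 1 (CBX2) in a fit to probes well above background on all arrays and 3 at an unadjusted p of 0.05; with no trend and by the methods' t-test it was 0. Leaving out an array was not possible, since each condition has 1, and slide could not be used as a block. No paired analysis was possible because each condition has a single array.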
